A study of Homo sapiens with 8 samples.

Results

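The DNA replication machinery was followed here through 45 genes for origin licensing, origin firing, the polymerases and clamp of the replication fork, strand joining and nucleotide supply. The genes were taken from a list of names, with no measured value in the rule, though the list was drawn up with earlier results of these data known. Each was read on 1 probe set, the one with the highest mean over the 8 arrays. All 45 were found among the 18239 genes the arrays name, and all 45 passed the filter on low values, as did 13002 genes in all. Values are on the log2 scale, so a difference of 1 is a 2-fold difference.

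Total RNA was hybridised to 8 single-colour Affymetrix arrays from 231BrM and SKBrM3, established human breast cancer lines selected for growth in the brain. The 4 groups, with 2 arrays each, were 231BrM with doxycycline, 231BrM control, SKBrM3 with doxycycline and SKBrM3 control. Cells were grown in DMEM with fetal bovine serum, and the treated groups received 100 ng of doxycycline (the labels give no volume) for 48 h. All 4 groups, controls included, carry a short hairpin against MET that doxycycline switches on. MET encodes the receptor tyrosine kinase for hepatocyte growth factor, and the comparison asks what follows at the RNA level when it is lowered. No group had doxycycline without the hairpin, so the effect of the drug and that of the hairpin cannot be told apart. Whether replicate arrays stem from separate cultures is not stated in the labels. All p-values thus rest on differences between arrays that may be technical only. In such bulk RNA, fewer cells in S phase and less RNA per cell cannot be told apart, and quantile normalization removes any change of total RNA.

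DNA replication starts at origins, where the origin recognition complex, CDC6 and CDT1 load the MCM2-7 helicase onto DNA in G1 phase. The CDC7-DBF4 kinase, MCM10, CDC45 and the GINS complex then turn the loaded helicase into a moving fork. DNA polymerase alpha with primase lays down primers, and polymerases delta and epsilon extend them on the PCNA clamp. Many of these genes are transcribed under E2F factors as cells enter S phase, which makes them a common reading of proliferation in tumour cells.

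MET checked the labels. It read 5.85 and 5.35 on the 231BrM doxycycline arrays, against 9.45 and 9.26 on the 231BrM control arrays. It read 5.76 and 5.71 on the SKBrM3 doxycycline arrays, against 9.26 and 9.20 on the SKBrM3 control arrays. MET fell by 3.76 in 231BrM and fell by 3.50 in SKBrM3 on the log2 scale (limma), as labelled. The name SKBrM3, a derivative of the HER2-amplified line SK-BR-3, was not borne out. ERBB2, which encodes HER2, lay between 6.76 and 6.89 on the 4 231BrM arrays and between 6.70 and 7.11 on the 4 arrays labelled SKBrM3. VIM, a mesenchymal marker typical of MDA-MB-231, lay between 12.77 and 12.91 on the 231BrM arrays and between 12.72 and 12.78 on those labelled SKBrM3. Of 13 luminal and HER2 markers tested, 7 were called between the control groups (limma, adjusted p under 0.05). That is 53.8%, beside 39.7% of all genes. KRT7, KRT8, KRT18, KRT19 and SPDEF were higher in 231BrM, while FOXA1 (-1.37) and PGAP3 (-0.31) were lower. Of 12 mesenchymal markers 5 were called, all higher in 231BrM: CAV1, CAV2, PLAU, SNAI2 and FOSL1. Their share, 41.7%, is near that of all genes. The markers thus do not all point one way, and ERBB2 was not called. The line is called by its label throughout, with no claim on its origin. The first 231BrM doxycycline array stood apart: the 3' minus 5' signal of its actin control probe sets was 1.24, against 0.46 to 0.59 on the other 7 arrays. Its replication genes differed from those of the second 231BrM doxycycline array by a median of 0.176, against 0.041 to 0.076 between the replicate arrays of the other 3 groups. The numbers of genes called with doxycycline in 231BrM and in the average of both lines are given with and without it.

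**Figure D1:**
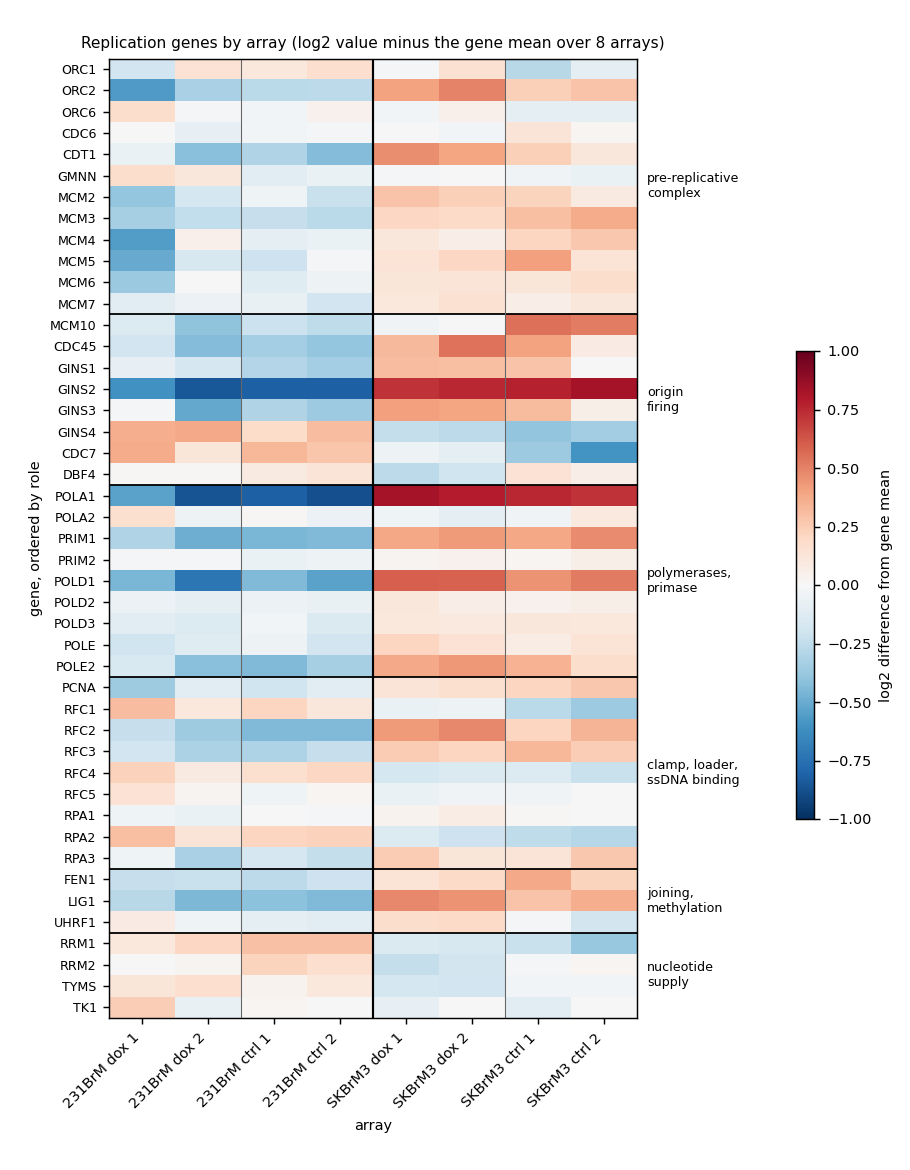
Heat map of the 45 replication genes (vertical axis, ordered by role) on the 8 arrays (horizontal axis), coloured by the log2 value minus the mean of that gene over all 8 arrays. The contrast runs between the 4 231BrM arrays and the 4 SKBrM3 arrays, with GINS2 and POLA1 lowest in 231BrM; columns with and without doxycycline of a line differ less.

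Doxycycline left the replication genes of 231BrM cells with no change that passed the test. None of the 45 genes was called at an adjusted p under 0.05 (limma, Benjamini-Hochberg over all genes tested), with 0.162% of all genes called. At an unadjusted p under 0.05 there were 1 higher gene (GMNN) and 1 lower gene (RRM2), beside 9.89% of all genes in either direction. Log2 differences between doxycycline and control arrays ran from -0.23 to 0.23 with a median of 0.014, beside a median of 0.046 over all genes tested. The 95% confidence interval of all 45 genes lay within a 1.5-fold change in either direction, as it did for 93.6% of all genes. These intervals use a spread shared by all 8 arrays. The 231BrM doxycycline arrays differed more than the other replicates (median 0.176 over the 45 genes, against 0.041 to 0.076). The intervals may thus be too narrow in 231BrM. They also hold only for the probe sets used. Other probe sets of these genes that passed the filter ran from -0.88 (MCM4) to 0.28 (RFC3). In 13 of the 45 genes both doxycycline arrays lay beyond both control arrays, 8 above and 5 below (28.9%, beside 37.9% of all genes).

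The 3 genes with the smallest p among the higher ones were GMNN, GINS1 and RFC2. GMNN encodes geminin, the inhibitor of CDT1 that blocks renewed licensing. It read 10.73 and 10.67 on the 231BrM doxycycline arrays, against 10.45 and 10.49 on the control arrays. Both treated arrays were above both controls, by 0.23 (95% interval 0.07 to 0.40, adjusted p = 0.40 in limma). GINS1, a subunit of the GINS complex, read 8.87 and 8.78 with doxycycline, against 8.66 and 8.61 in controls. Those groups did not overlap either, with a difference of 0.19 (adjusted p = 0.555), yet the other 2 GINS1 probe sets that passed the filter gave -0.55 and -0.15. RFC2, a subunit of the clamp loader, read 8.78 and 8.65 with doxycycline, against 8.57 and 8.56 in controls, a difference of 0.15 (adjusted p = 0.566).

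Among the lower ones these were RRM2, ORC2 and MCM5. RRM2, the S phase subunit of ribonucleotide reductase, read 10.81 and 10.84 on the doxycycline arrays, against 11.03 and 10.98 on the controls. Its treated arrays were below both controls, with a difference of -0.18 (adjusted p = 0.493). The second RRM2 probe set gave 0.03. ORC2, a subunit of the origin recognition complex, read 6.78 and 7.02 with doxycycline, against 7.08 and 7.09 in controls. The treated arrays were both lower, with the first one farther off, and the difference was -0.18 (adjusted p = 0.553). MCM5, of the MCM2-7 helicase, read 5.70 and 6.04 with doxycycline, against 6.0 and 6.20 in controls. Those groups overlapped, and the difference was -0.23 (adjusted p = 0.593).

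The first 231BrM doxycycline array weighed on these values. Between the replicate arrays of that group 8 of the 45 genes differed by more than 0.3, and MCM4 by 0.60, with 8.94 on the first and 9.55 on the second. No gene differed by more than 0.3 between the 231BrM control arrays. Without the first array, 0 of the 45 replication genes were called, with 80 genes called in all (0.615%). Without the second, 3 were called, MCM4, ORC2 and POLA1, with 1650 genes called in all (12.7%). Without the first array the median of the 45 was -0.031, beside -0.001 over all genes, and values ran from -0.24 (POLD1) to 0.20 (GMNN). GINS1 then stood at 0.15, RFC2 at 0.088 and RRM2 at -0.16. Among the genes named for their p, ORC2 and MCM5 rested on the first array most. They came to -0.058 and -0.056 without it, against -0.30 and -0.40 without the second. Some other members moved more without the first array, MCM4 from -0.177 to 0.125 and GINS3 from 0.072 to -0.179. The share that RNA quality has in these differences was not tested.

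In the cells labelled SKBrM3, 2 of the 45 replication genes changed with doxycycline, and both fell: MCM10 and DBF4. They make 4.44% of the genes, beside 3.43% of all genes tested, split into 1.15% higher and 2.28% lower ones. An unadjusted p under 0.05 was reached by 3 higher genes (CDC7, UHRF1 and RFC1) and 3 lower ones (MCM10, DBF4 and RRM2), beside 20.2% of all genes in either direction. Log2 differences ran from -0.55 to 0.41, with a median of 0.040 beside 0.015 over all genes. For 43 of the 45 genes the 95% interval lay within 1.5-fold in either direction, the exceptions being MCM10 and CDC7; it did so for 88.5% of all genes. In 34 genes the groups did not overlap, 22 higher and 12 lower with doxycycline, which is 75.6% of them beside 59.6% of all genes.

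MCM10, which binds the helicase and helps it to separate the strands at the start of replication, read 7.75 and 7.79 on the SKBrM3 doxycycline arrays, against 8.34 and 8.30 on the SKBrM3 controls. The groups were well apart, and MCM10 was 1.46-fold lower with doxycycline. The log2 difference was -0.55 (95% interval -0.77 to -0.33, adjusted p = 0.0222 in limma). Its other 2 probe sets that passed the filter also read lower, by -0.19 and -0.31. With the mean of all its probe sets the difference was -0.35 and the call was lost (adjusted p = 0.0929). In 231BrM cells MCM10 read 7.65 and 7.39 with doxycycline, against 7.57 and 7.53 in controls. Those groups overlapped, with a difference of -0.03 (95% interval -0.25 to 0.19).

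DBF4, the regulatory subunit that activates the CDC7 kinase, read 8.03 and 8.10 on the SKBrM3 doxycycline arrays, against 8.44 and 8.36 on the controls. It was 1.26-fold lower, a log2 difference of -0.34 (95% interval -0.51 to -0.17, adjusted p = 0.0493). All 5 of its other probe sets that passed the filter read lower too, by -0.31 to -0.58. In 231BrM cells DBF4 read 8.30 on both doxycycline arrays, against 8.38 and 8.42 in controls. There the groups did not overlap, but the difference of -0.10 was not called (adjusted p = 0.653).

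CDC7, the kinase that DBF4 activates, had the largest positive difference in these cells. It read 7.53 and 7.48 on the SKBrM3 doxycycline arrays, against 7.21 and 6.98 on the controls. The groups were apart by 0.41 (95% interval 0.16 to 0.66), which did not pass the test (adjusted p = 0.0867). Of its other 2 probe sets, the brighter gave 0.48 and the dimmer -0.03. CDC7 and DBF4, the subunits of the same kinase, therefore lay on opposite sides of 0.

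UHRF1, which brings the maintenance methyltransferase DNMT1 to newly copied DNA, read 10.17 and 10.19 on the SKBrM3 doxycycline arrays, against 9.98 and 9.82 on the controls. It was higher on both, by 0.29 (adjusted p = 0.113), while its second probe set gave 0.06. RFC1, the large subunit of the clamp loader, read 7.93 and 7.94 with doxycycline, against 7.72 and 7.63 in controls. The difference was 0.26 (adjusted p = 0.165), with 0.13 and 0.40 on its other probe sets. RRM2 read 10.58 and 10.63 with doxycycline, against 10.80 and 10.83 in controls. It was lower on both, by a difference of -0.21 (adjusted p = 0.163), close to its value in 231BrM cells, while its second probe set gave 0.09.

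Calls in SKBrM3 changed with the arrays and the weights used. All 8 arrays share 1 estimate of the spread, and the cause of the shifts was not tested. Without either 231BrM doxycycline array, or with those arrays given less weight, 5 of the 45 genes were called. MCM10 and DBF4 were then lower, and CDC7, UHRF1 and RFC1 higher, with 12.5% of all genes called without 1 such array (1631 genes) and 12.3% with the weights. Without any 1 of the other 6 arrays neither MCM10 nor DBF4 was called, with adjusted p-values of 0.0578 to 0.171 for MCM10 and 0.107 to 0.296 for DBF4. The MCM10 difference itself stayed between -0.57 and -0.53.

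**Figure D2:**
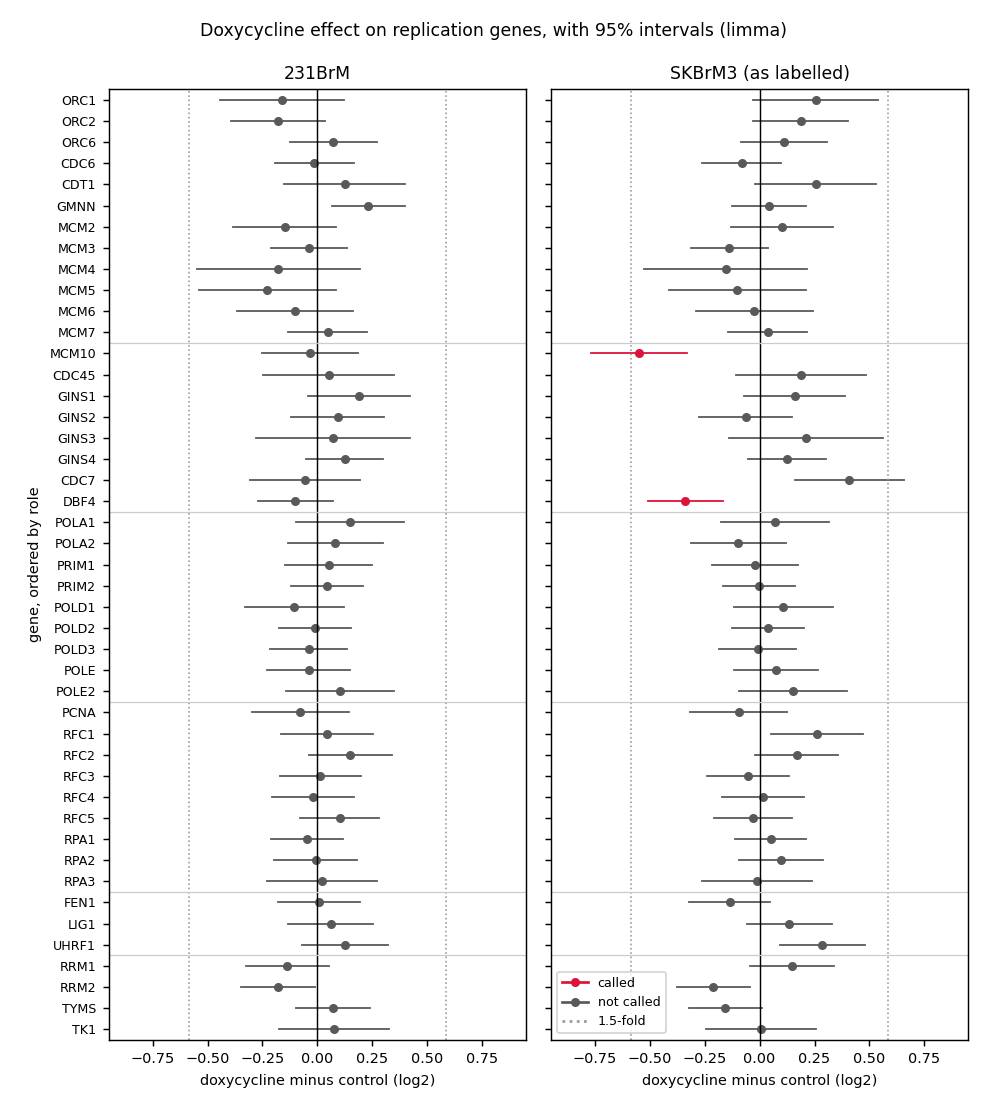
Doxycycline minus control on the log2 scale (horizontal axis) for each of the 45 replication genes (vertical axis, ordered by role) in 231BrM cells (left) and in cells labelled SKBrM3 (right). Points are limma estimates, bars 95% confidence intervals, dotted lines a 1.5-fold change; MCM10 (-0.55) and DBF4 (-0.34) in SKBrM3 are the 2 called genes, in red.

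**Figure D3:**
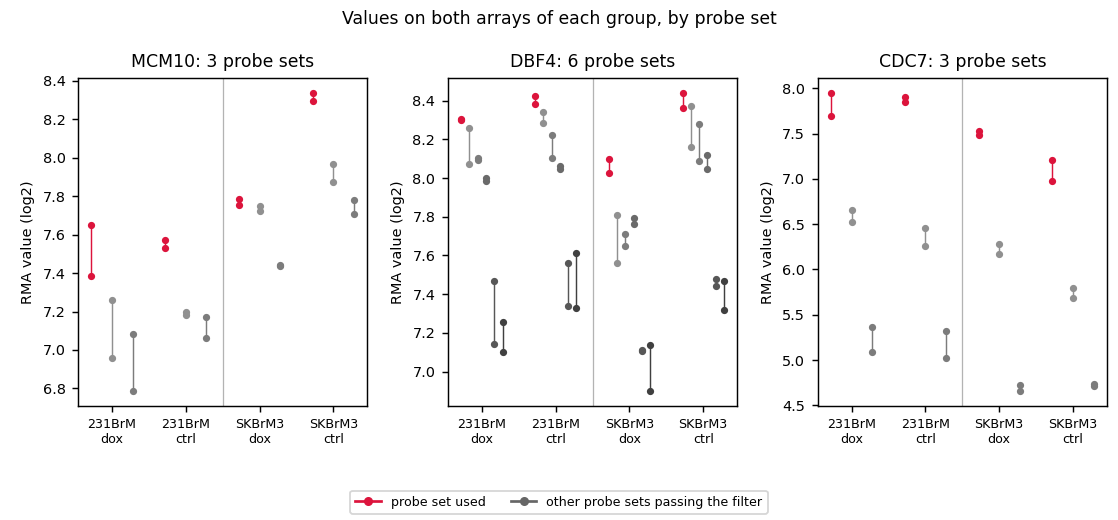
Log2 values (vertical axis) of every probe set that passed the filter for MCM10, DBF4 and CDC7, with 1 point for each of the 2 arrays of a group (horizontal axis) and a line joining them. The probe set used is red and the others are grey; all 3 MCM10 and all 6 DBF4 probe sets read lower with doxycycline in SKBrM3, whereas the dimmest CDC7 probe set did not follow the other 2.

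Neither call was shown to differ between the lines. The doxycycline effect in 231BrM minus that in SKBrM3 was 0.52 for MCM10 (adjusted p = 0.280), 0.24 for DBF4 (adjusted p = 0.455) and -0.47 for CDC7 (adjusted p = 0.345) in limma. None of the 45 replication genes passed the test of this difference, with 0.0231% of all genes called. At an unadjusted p under 0.05 the difference was positive for 1 of them and negative for 4, beside 11.2% of all genes. For 40 of the 45 the 95% interval of the difference lay within 1.5-fold (88.9%, beside 75.1% of all genes). The average of the effects in both lines called none of the 45 either, with 3.04% of all genes called. Its unadjusted p was under 0.05 for 5 higher and 3 lower genes, beside 18.9% of all genes. The smallest adjusted p of the average was 0.0601, for MCM10 (-0.29), followed by 0.0677 for DBF4 (-0.22). Without the first 231BrM doxycycline array 1 of the 45 was called in the average, MCM10, which fell, with 5.28% of all genes called. Without the second, 11 of the 45 were called, with 22.2% of all genes. In 4 of the 45 genes the doxycycline arrays lay beyond both controls in both lines but in opposite directions, close to the share over all genes (8.38%).

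The promoters of the called genes are shown because both fell together in SKBrM3. Promoter windows from 250 bases before to 50 after the start of transcription were taken from RefSeq (GRCh38.p14), which matched 39 of the 45 genes. Below are the 150 bases before the start of MCM10 (chr10:13161408-13161557, plus strand) and of DBF4 (chr7:87876343-87876492, plus strand), 5′ to 3′, with any E2F or CCAAT word in capitals.
MCM10: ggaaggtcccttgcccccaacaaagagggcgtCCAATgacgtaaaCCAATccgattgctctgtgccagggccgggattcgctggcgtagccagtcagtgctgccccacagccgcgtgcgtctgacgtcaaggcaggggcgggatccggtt
DBF4: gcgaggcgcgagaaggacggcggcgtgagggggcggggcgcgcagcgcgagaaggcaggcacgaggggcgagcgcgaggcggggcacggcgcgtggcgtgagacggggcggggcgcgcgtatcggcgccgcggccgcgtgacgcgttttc
The E2F words searched on both strands were TTTCCCGC, TTTCGCGC, TTTGCCGC and TTTGGCGC, and the other word was CCAAT, which does not overlap them. The MCM10 stretch holds 2 CCAAT words, with their first bases at positions -118 and -105 from the start, and no E2F word. The DBF4 stretch holds neither. Over the whole windows, 20 of the 39 replication genes had an E2F word (51.3%), beside 6.4% of 10583 genes tested on the arrays and 3.99% of 27305 genes with a window. A CCAAT word was found in 24 of the 39 (61.5%), beside 42.7% of the tested genes and 39.7% of all genes with a window. A match of letters is a description, and a missing one says only that these letters are not in the window.

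More replication genes were called between the lines than with doxycycline. Between 231BrM and SKBrM3 control arrays 24 of the 45 replication genes were called, 6 higher and 18 lower in 231BrM (limma, adjusted p under 0.05). That is 53.3% of them, beside 39.7% of all genes, of which 19.8% were higher and 19.9% lower. Of the 45 genes 32 had a difference below 0 and 13 above it (28.9%, beside 42.7% of all genes). The median was -0.23, beside -0.051 over all genes. Without either 231BrM doxycycline array, which enters only through the spread, 33 of the 45 were called, with 50.6% of all genes.

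GINS2, a subunit of the GINS complex that rides with the helicase, had the lowest difference. It read 7.20 on both 231BrM control arrays, against 8.78 and 8.85 on the SKBrM3 controls. The groups were far apart, with a 3.07-fold difference (log2 -1.62, standard error 0.093, adjusted p = 5.49e-06). POLA1, the catalytic subunit of DNA polymerase alpha, read 7.62 and 7.56 in 231BrM controls, against 9.19 and 9.16 in SKBrM3 controls. It was about as far below SKBrM3 as GINS2 was (log2 -1.58, standard error 0.107, adjusted p = 1.38e-05). Each of these genes was read on 1 probe set that passed the filter.

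The 150 bases before the start of these 2 genes are given as the promoters of the largest differences, GINS2 at chr16:85688955-85689104 on the minus strand and POLA1 at chrX:24693768-24693917 on the plus strand. They are from the same RefSeq windows, 5′ to 3′, with E2F and CCAAT words in capitals.
GINS2: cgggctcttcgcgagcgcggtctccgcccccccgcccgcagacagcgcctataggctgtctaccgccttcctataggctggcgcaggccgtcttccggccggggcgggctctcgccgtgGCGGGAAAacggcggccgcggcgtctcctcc
POLA1: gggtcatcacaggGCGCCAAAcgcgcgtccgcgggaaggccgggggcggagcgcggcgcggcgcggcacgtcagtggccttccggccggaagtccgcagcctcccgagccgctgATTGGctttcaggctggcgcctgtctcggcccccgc
GINS2 has the E2F word GCGGGAAA with its first base at position -31. POLA1 has the E2F word GCGCCAAA at -137 and ATTGG, which is CCAAT on the other strand, at -36. Both therefore hold an E2F word, as do 20 of the 39 genes.

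POLD1, the catalytic subunit of polymerase delta, read 6.77 and 6.68 in 231BrM controls, against 7.66 and 7.73 in SKBrM3 controls. It was 1.96-fold lower in 231BrM (log2 -0.97, adjusted p = 0.000116). PRIM1, the catalytic subunit of primase, read 8.14 and 8.16 in 231BrM controls, against 8.99 and 9.07 in SKBrM3 controls, which is 1.83-fold lower (log2 -0.88). MCM10 read 7.57 and 7.53 in 231BrM controls, against 8.34 and 8.30 in SKBrM3 controls, which is 1.70-fold lower (log2 -0.77, adjusted p = 0.000355). On the doxycycline arrays, where MCM10 is lower in SKBrM3, the same difference was -0.25 and was not called (adjusted p = 0.0652).

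CDC7 had the highest difference. It read 7.91 and 7.85 in 231BrM controls, against 7.21 and 6.98 in SKBrM3 controls, which is 1.72-fold higher (log2 0.78, adjusted p = 0.000654). Its other probe sets gave 0.62 and 0.45. On the doxycycline arrays the CDC7 difference was smaller, 0.32 (adjusted p = 0.045 in limma), and no longer the highest. GINS4, also of the GINS complex, read 8.40 and 8.52 in 231BrM controls, against 7.82 and 7.86 in SKBrM3 controls. It was 1.53-fold higher (log2 0.62), opposite to GINS1, GINS2 and GINS3, while its other probe sets gave 0.24 and 0.41. RRM1, the large subunit of ribonucleotide reductase, read 10.69 on both 231BrM controls, against 10.18 and 10.02 in SKBrM3 controls, which is 1.51-fold higher (log2 0.59). Of its 4 other probe sets, 3 gave 0.44 to 0.48 and the last -0.07.

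RPA2 and RFC1 completed the 5 highest. RPA2, a subunit of the protein that coats unwound strands, read 9.74 and 9.76 in 231BrM controls, against 9.27 and 9.24 in SKBrM3 controls (log2 0.49, adjusted p = 0.00183). RFC1 read 8.20 and 8.11 in 231BrM controls, against 7.72 and 7.63 in SKBrM3 controls (log2 0.48, adjusted p = 0.00337). Of the 24 called genes 15 had another probe set that passed the filter, and in 13 of these all such probe sets had the same sign. The exceptions were RFC3 and RRM1, each with 1 opposite probe set. Of all 45 genes 31 had another such probe set, and 5 had an opposite one: DBF4, POLA2, RFC3, RFC5 and RRM1.

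**Figure D4:**
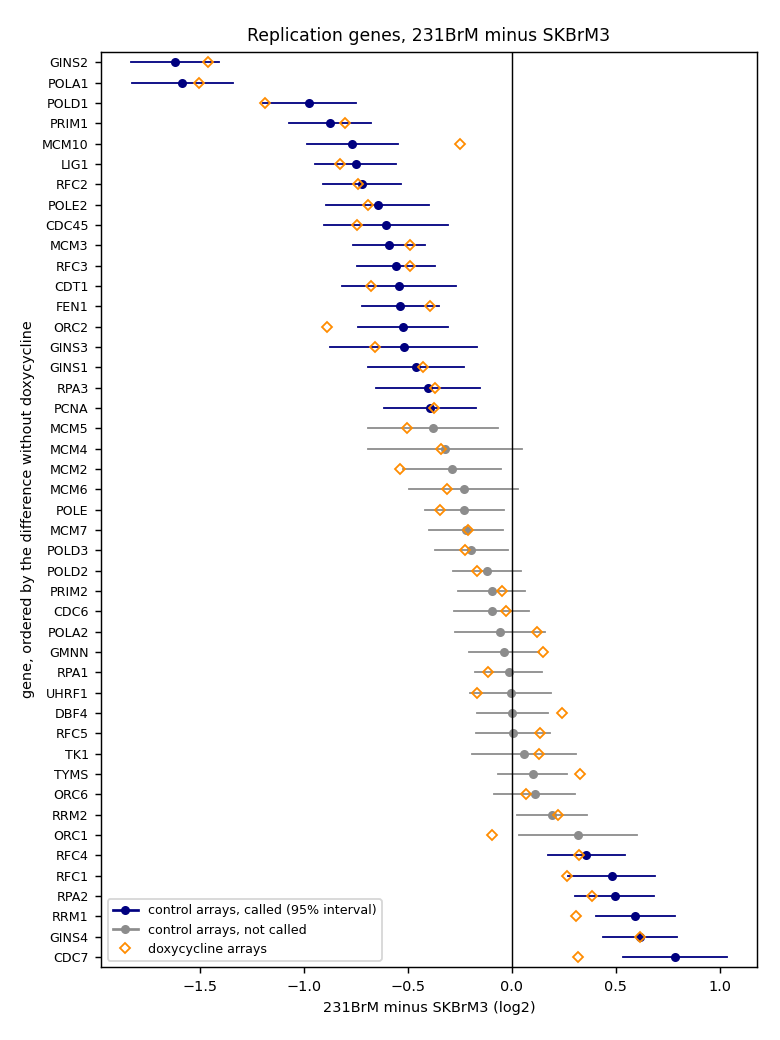
231BrM minus SKBrM3 on the log2 scale (horizontal axis) for the 45 replication genes (vertical axis, ordered by the difference without doxycycline). Filled points are control arrays with 95% intervals from limma, blue where called, and open diamonds are doxycycline arrays. On the control arrays GINS2 (-1.62) and POLA1 (-1.58) are lowest and CDC7 (0.78) is highest. The MCM10 diamond (-0.25) lies away from its point (-0.77), as does the CDC7 diamond (0.32).

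Read on the doxycycline arrays, the difference between the lines called 30 of the 45 genes, 9 higher and 21 lower in 231BrM, beside 41.6% of all genes. Of the 24 genes called on the control arrays, 23 were called in the same direction there, and MCM10 was not. Over all genes tested 3966 of 5167 were. In 35 of the 45 genes all 4 231BrM arrays lay beyond all 4 SKBrM3 arrays, 7 above and 28 below, which is 77.8% of them beside 44.7% of all genes. These arrays include the doxycycline ones, so they are not 4 replicates of a condition.

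By role, the pre-replicative complex held 3 of 12 genes called between the control groups, all lower in 231BrM: MCM3 (-0.59), CDT1 (-0.54) and ORC2 (-0.52). That is 25.0% of them, below the 39.7% over all genes. CDT1 loads the helicase together with CDC6, and MCM3 is part of it. On the probe sets used, the whole MCM2-7 helicase read lower on all 4 231BrM arrays than on any SKBrM3 array. Only MCM3 passed the test on the controls. The other subunits of the helicase differed by -0.22 (MCM7) to -0.38 (MCM5), with adjusted p-values from 0.0519 to 0.151 in limma. Some other probe sets of MCM2, MCM4 and MCM6 that passed the filter overlapped between the lines. ORC1 was at 0.32, ORC6 at 0.11, CDC6 at -0.096 and GMNN at -0.038, none of them called. With doxycycline the 12 genes ran from -0.23 (MCM5) to 0.23 (GMNN) in 231BrM and from -0.16 (MCM4) to 0.26 (ORC1) in SKBrM3, none called.

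Among the 8 origin firing genes 7 were called between the lines (87.5%, beside 39.7% of all genes). Besides those given above, CDC45, the helicase cofactor, was at -0.60, GINS3 at -0.52 and GINS1 at -0.46. DBF4, at 0.002, was the only one not called. With doxycycline this role held both calls in SKBrM3, MCM10 and DBF4 (25.0% of its 8 genes, beside 3.43% of all genes). Both calls were lost in some of the fits given above. The other 6 genes of this role ran from -0.064 (GINS2) to 0.41 (CDC7), and in 231BrM all 8 ran from -0.10 (DBF4) to 0.19 (GINS1).

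On the probe sets used, all 9 polymerase and primase genes had a difference below 0 between 231BrM and SKBrM3 controls. Of these 4 were called (44.4%, beside 39.7% of all genes). Over all genes tested 42.7% were above 0. The called ones were POLA1, POLD1, PRIM1 and POLE2, a subunit of polymerase epsilon (-0.65). POLE, the catalytic subunit of polymerase epsilon (-0.23), POLD3 (-0.19), POLD2 (-0.12), PRIM2 (-0.096) and POLA2 (-0.056) did not pass the test. Subunits of the same enzyme thus differed, with POLA1 at -1.58 beside POLA2 at -0.056. The second POLA2 probe set, which also passed the filter, gave 0.41. With doxycycline none of the 9 was called, and differences ran from -0.10 (POLD1) to 0.15 (POLA1) in 231BrM and from -0.098 (POLA2) to 0.15 (POLE2) in SKBrM3.

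Of the 9 clamp, clamp loader and single-strand binding genes 7 were called between the lines, in both directions (77.8%, beside 39.7% of all genes). RFC1 (0.48), RFC4 (0.36) and RPA2 (0.49) were higher in 231BrM. RFC2 (-0.72), RFC3 (-0.56), RPA3 (-0.40) and PCNA, the sliding clamp (-0.39), were lower. RFC5 (0.007) and RPA1 (-0.015) were not called. The clamp loader was therefore split, with RFC1 and RFC4 higher and RFC2 and RFC3 lower. With doxycycline none was called, with ranges of -0.077 (PCNA) to 0.15 (RFC2) in 231BrM and -0.096 (PCNA) to 0.26 (RFC1) in SKBrM3.

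LIG1, which seals Okazaki fragments, was at -0.75 and FEN1, which trims their flaps, at -0.54 between the control groups, both called lower in 231BrM. UHRF1 was at -0.006, so 2 of these 3 genes were called (66.7%, beside 39.7% of all genes). Of the 4 nucleotide supply genes only RRM1 was called, higher in 231BrM (25.0%, below the 39.7% of all genes). RRM2 (0.19), TYMS (0.10), the thymidylate synthase, and TK1 (0.059), the salvage kinase for thymidine, were not called. With doxycycline these 7 genes ran from -0.18 (RRM2) to 0.13 (UHRF1) in 231BrM and from -0.21 (RRM2) to 0.29 (UHRF1) in SKBrM3, none called.

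Other replication genes were read from another list of 43, of which 42 were tested. None was called with doxycycline in 231BrM, beside 0.162% of all genes. In SKBrM3 RRM2B and TOP1 fell, 2 of 42 or 4.76%, beside 3.43% of all genes. RRM2B, the p53-regulated small subunit of ribonucleotide reductase, read 5.85 and 6.15 on the SKBrM3 doxycycline arrays, against 7.20 and 7.41 on the controls. The groups were well apart, with a 2.47-fold lower value (log2 -1.31, adjusted p = 0.00675). In 231BrM it read 7.43 and 6.89 with doxycycline, against 7.97 and 7.90 in controls, with no overlap and a difference of -0.77 (adjusted p = 0.222). Without the first 231BrM doxycycline array it was called lower there (-1.05, adjusted p = 0.0151), the only gene of the list that was. TOP1, the topoisomerase that relieves twist ahead of the fork, read 10.40 and 10.48 on the SKBrM3 doxycycline arrays, against 10.84 and 10.85 on the controls (log2 -0.41, adjusted p = 0.0291). Without either SKBrM3 control array, or without the first SKBrM3 doxycycline array, RRM2B was not called (adjusted p up to 0.0909). TOP1 was not called without any 1 of the 6 arrays other than the 231BrM doxycycline ones.

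Averaged over both lines, 4 of the 42 genes were called (9.52%, beside 3.04% of all genes): RRM2B (-1.04), TOP1 (-0.28) and the clamp loader subunit DSCC1 (-0.30) fell, and ORC3 (0.33) of the origin recognition complex rose. The same 4 were called without the first 231BrM doxycycline array. RRM2B was the only one of them that remained called whichever of the 8 arrays was left out (adjusted p up to 0.034). The medians of the list were 0.050 in 231BrM and 0.056 in SKBrM3, beside 0.014 and 0.040 for the 45 genes. In SKBrM3 DTYMK, the thymidylate kinase (0.33), and TIMELESS, which protects the fork (0.32), had the smallest p among higher genes (adjusted p = 0.0942 and 0.0989). In 231BrM, ORC3 (0.36) and the polymerase epsilon subunit POLE4 (0.21) were the first among higher genes and RRM2B and DSCC1 (-0.29) among lower ones, none called. With the first 231BrM doxycycline array left out, ORC3 stood at 0.27, POLE4 at 0.085 and DSCC1 at -0.40.

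Regulators of S phase entry, a list of 28 genes, had 0 called with doxycycline in 231BrM, 2 in SKBrM3 (7.14%, beside 3.43% of all genes) and 3 in the average (10.7%, beside 3.04%). Without the first 231BrM doxycycline array 0 were called in 231BrM and 4 in the average, CDC25A in addition. In SKBrM3 CDKN1A, which encodes the CDK inhibitor p21 that also binds PCNA, read 8.54 and 8.51 with doxycycline, against 9.24 and 9.37 in controls. It fell 1.72-fold (log2 -0.78, adjusted p = 0.00231) and remained called whichever array was left out. CDKN1B, which encodes the CDK inhibitor p27, read 7.59 and 7.68 with doxycycline, against 7.08 and 6.70 in controls. It rose 1.67-fold (log2 0.74, adjusted p = 0.0237). That call was lost without 5 of the 8 arrays, among them each SKBrM3 doxycycline array. In 231BrM none was called, with CDKN1A at -0.23 and CDKN1B at 0.27. CCND2, a D-type cyclin, rose in the average of both lines by 0.65 (adjusted p = 0.0323), a call kept in 2 of the 8 fits that leave out 1 array. It read 5.99 and 5.45 with doxycycline in 231BrM, against 5.15 and 4.86 in controls, and 6.64 and 6.72 with doxycycline in SKBrM3, against 5.97 and 6.22 in controls. The list's medians were -0.002 in 231BrM and -0.029 in SKBrM3. Others named by their p were E2F7 (0.22) and CCND1 (-0.37) in 231BrM, and CCND3 (0.41) and CDK6 (-0.24) in SKBrM3, none called. With the first 231BrM doxycycline array left out, E2F7 stood at 0.17 and CCND1 at -0.10 in 231BrM.

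Mitotic genes, the other large group of cycling cells, had 0 of 34 called with doxycycline in each line. Over all genes 0.162% were called in 231BrM and 3.43% in SKBrM3. At an unadjusted p under 0.05 there were 8 higher genes in 231BrM and 4 in SKBrM3, with no lower one in either line, beside 9.89% and 20.2% of all genes in either direction. Their medians were 0.12 in 231BrM and 0.094 in SKBrM3, beside 0.046 and 0.015 over all genes. Above 0 were 27 of the 34 in 231BrM (79.4%, beside 64.2% of all genes) and 26 in SKBrM3 (76.5%, beside 53.7%). Without the first 231BrM doxycycline array 0 were called in 231BrM and 3 were higher at an unadjusted p under 0.05, with a median of 0.11 beside -0.001 over all genes. HMMR (0.35) and CCNB2 (0.22) had the smallest p in 231BrM, and UBE2C (0.27) and KIF23 (0.28) in SKBrM3. On the lower side these were PLK1 (-0.14) and BIRC5 (-0.11) in 231BrM, and CKS2 (-0.13) and CDK1 (-0.050) in SKBrM3. With the first 231BrM doxycycline array left out, PLK1 stood at -0.099 in 231BrM and BIRC5 turned to 0.15. Between the control groups 17 of the 34 mitotic genes were called, 14 higher and 3 lower in 231BrM, with a median of 0.13. Of the 45 replication genes 24 were called, 6 higher and 18 lower, with a median of -0.23. Over all genes tested 39.7% were called, 19.8% higher and 19.9% lower, with a median of -0.051. Whether the mitotic and the replication genes differ from each other was not tested.

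Of 10 markers of other cells of brain or stroma 5 passed the filter on low values, and PTPRC, CD14, CDH5, COL3A1 and AQP4 did not. The mean log2 value over the 10 ranged from 4.58 to 4.64 on 231BrM doxycycline, 4.59 to 4.63 on 231BrM control, 4.52 to 4.55 on SKBrM3 doxycycline and 4.52 to 4.53 on SKBrM3 control arrays. With doxycycline none of the 5 was called in either line. Between the control groups MBP (0.55) and COL1A1 (0.47) were called higher in 231BrM, and their part in the line difference was not tested.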

How the data were processed

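RNA of 8 arrays was analysed (4 groups of 2). The authors deposited log2 values, 1 per probe set and array, made with RMA per the submitters' processing notes; version, software and chip definition were not given in the sources used here. No scanner intensities were used, so low values have no measured background. The table holds 49386 probe sets, of which 93 are controls, 45253 name 1 gene, 1327 several and 2713 none. Symbols of 45172 were updated by gene ID through RefSeq.

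Where several probe sets name a gene, the brightest on average stood for it, giving 18239 genes. Those above 4.41, percentile 40 of the table, on 2 or more arrays were tested. That left 13002 genes and set aside 5237. The 45 genes have 115 probe sets; 6 of those used are of type x_at and 7 of type s_at, which can share sequence with other transcripts.

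The 4 group means were estimated from all 8 arrays in limma 3.58.1 under R 4.3.3 (functions lmFit and eBayes), with 4 residual and 4.6 prior degrees of freedom. Tests were two-sided, with Benjamini-Hochberg adjustment over all genes tested and a threshold of 0.05. The median standard error over the 45 genes was 0.086, and the number of arrays limits the precision. On values simulated for these 13002 genes the fit recovered 49% of log2 changes of 0.5 and 89% of changes of 1 in 231BrM, and 42% and 93% in SKBrM3. The simulation gave each gene the same spread on all 8 arrays and no difference between the lines. In the data the 231BrM doxycycline arrays differed by a median of 0.155 over all genes, against 0.076 to 0.082 in the other groups. All groups share 1 estimate of the spread in the fit, so the recovery in either line may not hold for the data.

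Named genes were those called in a doxycycline comparison, the 3 smallest p in each direction per line, the 5 highest and 5 lowest called between the lines, and for other lists the called ones and the 2 smallest p in each direction. The members and lists were chosen with earlier results of these data known. Alternatives were other filters, the mean of all probe sets, array weights, an eBayes trend, median centring, a replicate block, only the groups compared, and leaving out each array. Word counts in promoters were made in Python 3.11.15 with pandas 2.3.3.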

Additional observations from a re-analysis of the deposited data

Results flagged for a closer look

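In 4 of the 45 replication genes both doxycycline arrays lay on one side of both controls in 231BrM and on the other side in SKBrM3. This is close to the share over all genes (8.38%). The effect in 231BrM minus that in SKBrM3 was -0.37 for ORC2 (adjusted p = 0.376), -0.097 for RPA1 (0.752), -0.28 for RRM1 (0.423) and 0.23 for TYMS (0.464) on the log2 scale, so none passed limma's test of the difference. ORC2 read 6.78 and 7.02 with doxycycline in 231BrM, against 7.08 and 7.09 in controls, and 7.75 and 7.84 with doxycycline in SKBrM3, against 7.58 and 7.63 in controls. The other 2 ORC2 probe sets gave 0.05 and -0.02 in 231BrM and -0.09 and -0.10 in SKBrM3. The second TYMS probe set gave -0.11 in 231BrM and -0.15 in SKBrM3, and the second RPA1 probe set 0.02 and 0.12. The 4 other RRM1 probe sets ran from -0.09 to 0.02 in 231BrM and from 0.002 to 0.16 in SKBrM3. Actin control probe sets, which belong to no comparison, read 1.24 higher at the 3' end than at the 5' end on the first 231BrM doxycycline array, against 0.46 to 0.59 on the other 7.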

How the results depend on the processing

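The number of arrays limits these results, and calls moved with the processing and the fit. Genes called with doxycycline in 231BrM numbered 21, against 11 with array weights, 35 with an eBayes trend, 43 after median centring and 1 with only the groups compared. In SKBrM3 446 genes (66.4% lower) became 1605 with array weights (50.2% lower) and 1248 with only the groups compared (49.8% lower). Replication genes called there, 2 in the fit described above, were 1 with the mean of all probe sets (DBF4), 5 with array weights, 4 with a trend (RRM2 and UHRF1 added) and 3 with only the groups compared (CDC7 added). The average called 614 genes after median centring, against 395, and 1 replication gene with the mean of all probe sets, 1 with array weights, 2 with a trend and 2 after centring, against 0. The difference of the effects called 6 genes with a trend and 6 after centring, against 3. GINS1 in 231BrM turned to -0.17 with the mean of all probe sets. Between the lines GINS4 was lost with that mean (0.33, adjusted p = 0.363). The cause of these shifts was not tested. Of the other values of single named genes 332 kept direction and side of the threshold, 13 gained and 16 lost the call.

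Leaving out each array in turn gave 3 to 1650 genes in 231BrM (0 to 3 replication genes), 52 to 1631 in SKBrM3 (0 to 5), 98 to 2887 in the average (0 to 11), 0 to 473 in the difference (0 to 2) and 3323 to 6575 between the lines (20 to 33). Fits that leave a group with 1 array assume that it varies like the others.

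The replicate numbers are shared by name only, since the labels give no pairing and the deviations of same-numbered arrays correlated at 0.239 in 231BrM and -0.012 in SKBrM3 over 13002 genes. With a replicate block 20 genes were called in 231BrM, 482 in SKBrM3, 442 in the average, 4 in the difference and 5406 between the lines. Replication genes called were then 1 in SKBrM3 (MCM10, with DBF4 at an adjusted p of 0.0724) and 26 between the lines. Only the groups compared could not be used for the average or the difference, which need all 4 groups.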
